A study of Drosophila melanogaster with 15 samples.

Results

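The comparison set gain of the JAK/STAT ligand Upd against labelled loss of chinmo, a gene described as a JAK/STAT target, in somatic cells of the Drosophila melanogaster testis. It used 6 of the 15 RNA-seq libraries of the series, 3 for each genotype, chosen by genotype and not by any measured value, and the 3 WT libraries were used for reference levels. The fit behind every p-value held all 15, so the spread was also estimated from WT and from 2 further groups of 10-day-old males with the same driver, Chinmo, with a UAS transgene of chinmo and tub-gal80TS, and Ci, with UAS-Ci5Ncm5 and UAS-Ci5m30. In each genotype GFP-positive cells were sorted from dissociated adult testes, each library came from 100 to 200 testes pooled from 50 to 100 flies, and polyA RNA was sequenced. All males were w/Y and carried a second chromosome with tj-Gal4,UAS-GFPnls, a driver that acts in the cyst lineage and a nuclear GFP. In Upd males, 10 days old, the other second chromosome carried UAS-Upd, and the pair of the third chromosome was UAS-GFP and +. In males labelled chinmo RNAi, 2 to 3 days old, the other second chromosome was + and the pair of the third chromosome carried UAS-chinmoRNAi (HMS00036) and UAS-dcr2. In WT males, 10 days old, the other second chromosome carried UAS-GFPnls and both copies of the third were +. Genotype, age and the UAS-dcr2 transgene differ together between the 2 groups and cannot be told apart in any value below. WT males also differ from the males labelled chinmo RNAi in age and UAS-dcr2, so WT is not a matched control for them. Nothing in the labels says whether replicates are separate cultures, and the p-values therefore reflect only the spread between these samples, which may be technical.

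The testis tip holds a cluster of somatic hub cells that secrete Upd. Upd activates the receptor Dome, the kinase Hop and the transcription factor Stat92E in the neighbouring germline and cyst stem cells, and in cyst stem cells this signal maintains zfh1 and chinmo, which encode transcriptional regulators. Cyst cells that leave the hub wrap the dividing germline, lose stem cell factors and gain eya, and chinmo is also known for keeping the male identity of cyst stem cells.

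Levels are in CPM, counts relative to the library total after TMM scaling; they are not per length and are compared within a gene only. Differences are Upd minus chinmo RNAi on the log2 scale, with the SE, from edgeR's quasi-likelihood test, and a gene was called at a Benjamini-Hochberg adjusted p under 0.05 over 10056 genes. A group with no counts of a gene has a floor of 3 counts over its 3 libraries, and folds against it are lower bounds. Where values or means follow each other with no group named, the first are Upd and the second the libraries labelled chinmo RNAi; libraries are given in the order 1, 2, 3.

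The 2 groups stood far apart. Counts in genes ranged from 2102093 to 2443475 per Upd library and from 1666727 to 2197465 per library labelled chinmo RNAi, and the first principal component, with 68.9% of the variance, separated the groups. The second, with 17.69%, set replicate 2 of the labelled RNAi libraries apart from its replicates 1 and 3. This library also had the fewest genes detected, 8109 against 10324 and 10846. Pearson's r across the genes was 0.947 to 0.961 between Upd libraries, 0.794 to 0.852 between labelled RNAi libraries and 0.505 to 0.585 between the groups. Of the genes tested, 975 were higher in Upd, which is 9.7%, and 2058 were lower, which is 20.5%. These shares are the reference for the counts of every list below. The median log2 change over the genes tested was -0.05. Over all genes tested, 55.49% did not overlap between the groups, 2912 with Upd above and 2668 with Upd below. Absence of overlap, given below for single genes, is therefore common and was not used as a test. Under size factor scaling that median was 0.25 and the calls were 1353 higher and 1782 lower, so that 43.2% of calls were higher in place of 32.1%. Without Upd 1, 2 or 3 the higher calls numbered 608, 602 and 622. Without labelled RNAi replicate 2, the calls were 670 higher and 2011 lower. Fitted on the 6 libraries alone the calls were 1547 higher and 2055 lower, and without the Chinmo group 1959 and 2487, so that genes given below as not passing may pass in those fits.

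**Figure D1:**
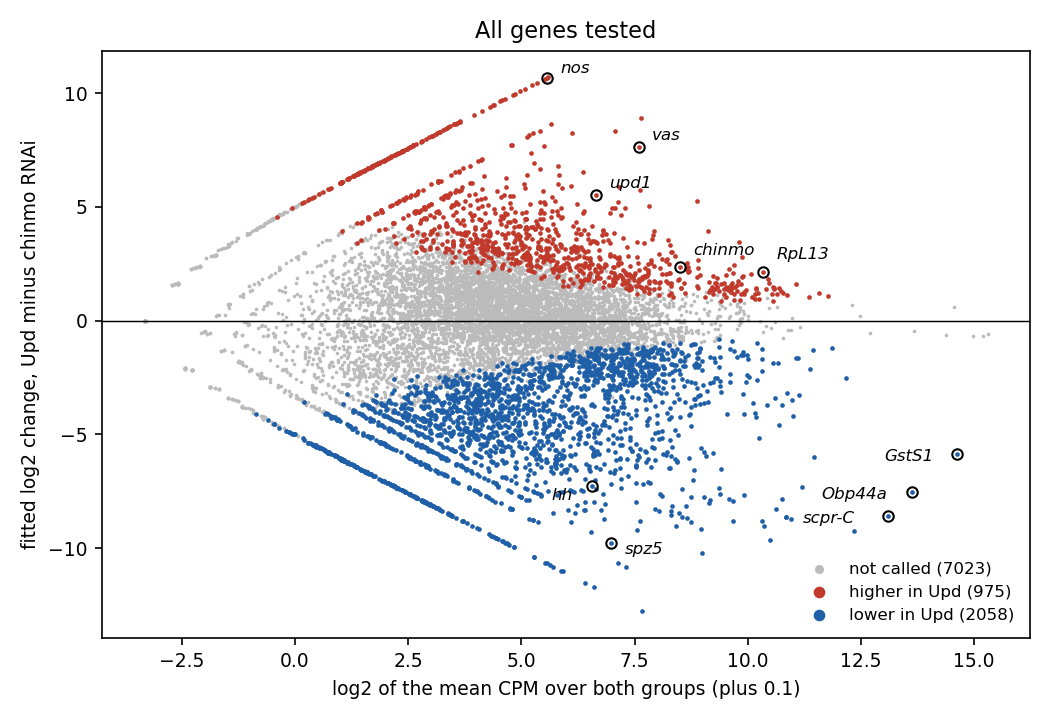
Fitted log2 change, Upd minus chinmo RNAi, of the 10056 genes tested against the log2 of their mean level over both groups in CPM. Red points are the 975 genes called higher in Upd, blue points the 2058 called lower and grey points the rest; the outer straight bands are genes with no counts in a group, whose fitted change depends on the prior count. GstS1, Obp44a and scpr-C lie alone at the lower right.

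Both manipulated genes were higher in Upd. The ligand gene upd1 (chromosome X, 18305354 to 18309291, minus strand, dm6/BDGP6) stood at 177, 208 and 202 CPM in Upd 1, 2 and 3 and at 4.49, 1.28 and 6.71 CPM in the labelled RNAi libraries. Its counts do not separate the endogenous gene from UAS-Upd. Every Upd library was above every labelled RNAi library, a 47-fold difference of means (log2 5.52 ± 1.004, edgeR adjusted p = 0.000238). The transcription factor gene chinmo (chromosome arm 2L, 1651258 to 1704682, plus strand) stood at 729.7, 545 and 545 CPM in Upd and at 147, 143 and 61.4 CPM in the labelled RNAi libraries, again without overlap (log2 2.37 ± 0.53, edgeR adjusted p = 0.0017). The WT libraries held 70.8, 75.2 and 69.8 CPM of chinmo. The fitted level of the targeted transcript was thus not below that of the older WT in the labelled RNAi libraries (log2 0.70 against WT, edgeR adjusted p = 0.437). In Upd, chinmo exceeded WT by a log2 difference of 3.07 (edgeR adjusted p = 0.000153). The series has no control of the age of the labelled RNAi males, so a fall of chinmo relative to that age cannot be seen. Dcr-2, the nuclease encoded by the UAS-dcr2 transgene, stood at 332, 232 and 250.4 CPM in Upd and 362, 379 and 541 CPM in the labelled RNAi libraries. The groups did not overlap, but the log2 difference of -0.66 ± 0.43 did not pass the test (edgeR adjusted p = 0.26). Fitted on the 6 libraries alone, it did.

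Most components of the pathway between ligand and targets did not pass the test. Of 20 JAK/STAT genes listed, 16 were tested, and 4 were higher (25.0% against 9.7% of the genes tested) and 2 lower (12.5% against 20.5%), with a median log2 change of 0.72. The higher members, upd1, zfh1, nclb and chinmo, include the overexpressed gene itself. With the 6 libraries alone 6 were higher and 4 lower, and without the Chinmo group 8 and 4. The receptor gene dome stood at 181, 172 and 201 CPM in Upd and 467, 785 and 598 CPM in the labelled RNAi libraries (log2 -1.74 ± 0.73, edgeR adjusted p = 0.078). Stat92E, the transcription factor, stood at 453, 449.6 and 472 CPM and 694, 1013 and 757 CPM (log2 -0.84 ± 0.34, edgeR adjusted p = 0.0634). For both genes every Upd library was below every labelled RNAi library, and both passed the test when the 6 libraries were fitted alone, though not in the fit of all 15. The kinase gene hop had means of 49.6 CPM in Upd and 18.2 CPM in the labelled RNAi libraries (edgeR adjusted p = 0.152), and passed with DESeq2 and without the Chinmo group.

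Targets of the pathway moved in different directions. The feedback inhibitor gene Socs36E, often used as a readout of the pathway, stood at 174, 149 and 149 CPM in Upd and 114, 44.3 and 61.4 CPM in the labelled RNAi libraries. These groups did not overlap, as was so for 55.49% of all genes tested. The log2 difference of 1.10 ± 0.61 did not pass the test (edgeR adjusted p = 0.176), and both groups stood above the WT mean of 25.9 CPM. Ptp61F, a phosphatase gene that limits the pathway, had means of 347 and 164 CPM (edgeR adjusted p = 0.0656). Both genes passed with DESeq2, with limma-voom, with the 6 libraries alone and without the Chinmo group, and Ptp61F also under size factor and upper quartile scaling. Among targets, zfh1 rose, with values given with the stem cell factors. vir-1, an infection-induced gene that is a known STAT readout, fell. It stood at 44.3, 46.6 and 49.3 CPM in Upd, 752, 871 and 775 CPM in the labelled RNAi libraries and 747, 713 and 622 CPM in WT (log2 -4.09 ± 0.42, edgeR adjusted p = 1.34e-07). Tep2, a thioester-containing protein gene of humoral immunity, also fell, from a mean of 257 CPM in the labelled RNAi libraries to 64.2 CPM in Upd (edgeR adjusted p = 0.0024).

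**Figure D2:**
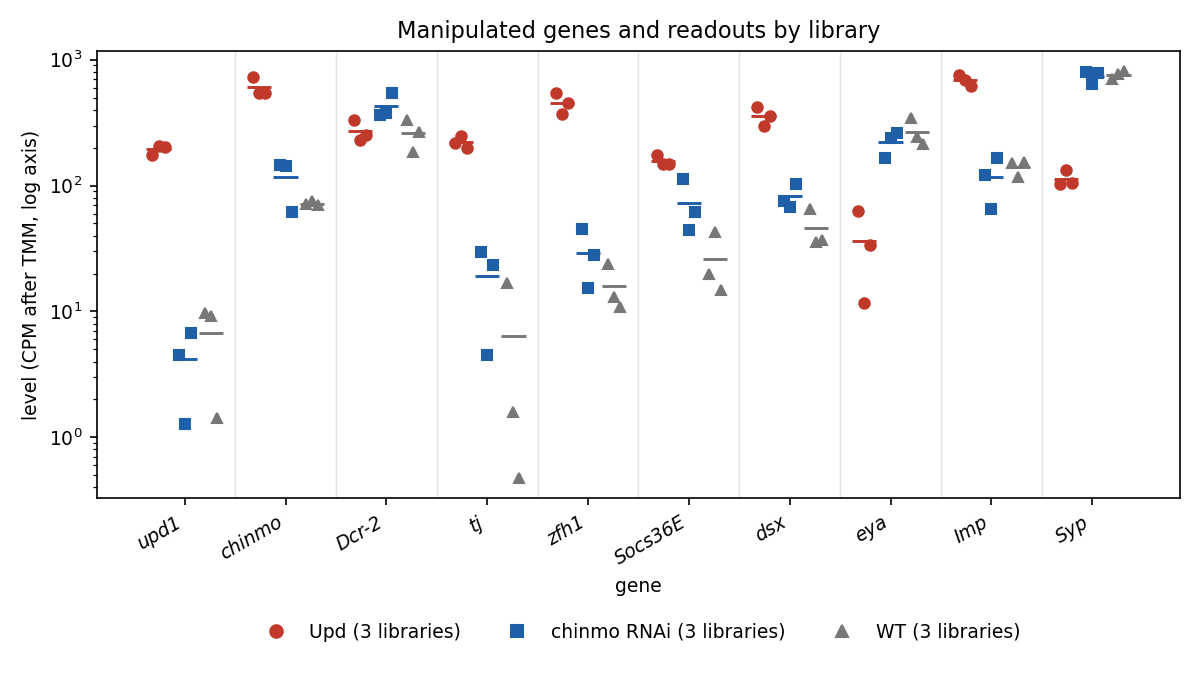
Level in CPM after TMM, on a log axis, of 10 genes of the manipulations and readouts in the 3 Upd, 3 labelled chinmo RNAi and 3 WT libraries; points are libraries and lines are group means. Upd libraries lie above both other groups for upd1, chinmo, tj, zfh1, Socs36E, dsx and Imp, and below both for eya and Syp.

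Among cyst stem cell factors 7 of 16 were higher in Upd, 1 was lower and 8 did not pass. The large Maf factor gene tj (chromosome arm 2L, 19464267 to 19467758, plus strand), whose enhancer trap drives the transgenes, stood at 219, 246 and 199.6 CPM in Upd and 29.5, 4.497 and 23.2 CPM in the labelled RNAi libraries (log2 3.53 ± 0.99, edgeR adjusted p = 0.00962). The zinc finger homeodomain gene zfh1 (chromosome arm 3R, 30765926 to 30789202, plus strand) stood at 544, 372 and 453 CPM and 44.9, 15.4 and 27.9 CPM (log2 3.95 ± 0.86, edgeR adjusted p = 0.0013). The groups did not overlap for either gene, and labelled RNAi replicate 2 was the lowest library for both. The marker of the driver, tj, was thus counted in every library of both groups, and in WT it stood at 16.9, 1.59 and 0.475 CPM. The median log2 change of the 16 was 1.48, and with the 6 libraries alone 9 were higher and 3 lower. CadN, the neuronal cadherin gene, was 468, 390.3 and 464 CPM in Upd and 7.06, 2.57 and 29.9 CPM in the labelled RNAi libraries (log2 5.04 ± 0.76, edgeR adjusted p = 2.65e-05; 6.50 without labelled RNAi replicate 3). The Wnt ligand gene Wnt4 was 10.9-fold higher (346 ± 62.4 against 31.7 ± 18.7 CPM, SD, n = 3 each; edgeR adjusted p = 0.00309). The lower member was shg, which encodes E-cadherin, with means of 206 CPM in Upd and 532 CPM in the labelled RNAi libraries (edgeR adjusted p = 0.013). The shg call did not hold without Upd 2, without Upd 3 or without labelled RNAi replicate 2.

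Among 8 markers of differentiating cyst cells tested, 4 were lower in Upd, none was higher, 4 did not pass, and the median log2 change was -2.38. The nuclear cofactor gene eya stood at 62.7, 11.6 and 34.0 CPM in Upd, 165, 240.3 and 263 CPM in the labelled RNAi libraries and 342, 242 and 216 CPM in WT. Upd 1 was the highest of its group and still below each labelled RNAi library (log2 -2.63 ± 0.56, edgeR adjusted p = 0.00119; -3.28 without Upd 1). Nep4, a neprilysin peptidase gene, was 3.59, 0.351 and 1.87 CPM and 175, 27.0 and 59.8 CPM (edgeR adjusted p = 0.000507). Akr1B, an aldo-keto reductase gene listed as CG6084 in the count table, fell from 1360.2 ± 389 CPM in the labelled RNAi libraries to 209 ± 9.49 CPM in Upd (SD, n = 3 each; edgeR adjusted p = 5.32e-06). In these bulk samples fewer cells of a type and less RNA per cell cannot be told apart, here and for every marker below.

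Of 8 hub markers tested, 4 were higher in Upd and 4 were lower. The higher ones were CadN, esg, magu and upd1, of which upd1 is the gene expressed from the transgene, and the lower ones were dpp, hh, Fas3 and shg. The Hedgehog ligand gene hh stood at 1.20, 1.05 and 1.25 CPM in Upd and 183, 202 and 177 CPM in the labelled RNAi libraries (log2 -7.26 ± 0.97, edgeR adjusted p = 5.81e-06), against 19.0, 47.3 and 58.9 CPM in WT. The BMP ligand gene dpp stood at 2.40, 1.05 and 0 CPM and 185, 209 and 272 CPM (edgeR adjusted p = 2.06e-07), with 89.3, 58.5 and 109 CPM in WT. Both genes were thus near the floor in Upd and highest in the labelled RNAi libraries. The cell adhesion gene Fas3 was 20.8, 6.31 and 6.55 CPM in Upd and 322, 317 and 258 CPM in the labelled RNAi libraries (edgeR adjusted p = 0.000118). In the opposite direction magu, which encodes a secreted modulator of BMP signalling, was 522, 479 and 668 CPM in Upd and 51.3, 55.9 and 35.1 CPM in the labelled RNAi libraries (log2 3.55 ± 0.62, edgeR adjusted p = 0.000155). The hub transcription factor genes tup and Lim1 had few counts. tup was counted 0, 1 and 0 times in Upd and 64, 7 and 7 times in the labelled RNAi libraries, and Lim1 was counted 3 times in labelled RNAi replicate 1 and in none of the other libraries of the 2 groups. Neither gene was tested.

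Early germline genes were higher in Upd by a wide margin, although the cells were sorted for somatic GFP. Of 18 early germline markers, 15 were higher and 1 was lower, with a median log2 change of 5.48. The RNA helicase gene vas stood at 413, 354 and 382 CPM in Upd and at 0, 0.642 and 4.64 CPM in the labelled RNAi libraries (log2 7.63 ± 1.05, edgeR adjusted p = 7.9e-06; 9.98 without labelled RNAi replicate 3). The Argonaute-family gene aub was at 299, 271 and 235 CPM in Upd and 0, 1.28 and 1.03 CPM in the labelled RNAi libraries (edgeR adjusted p = 5.43e-06). No counts of nos, zpg or tut fell in the labelled RNAi libraries: nos, a translational repressor gene, was 99.5, 92.6 and 92.3 CPM in Upd, at least 160-fold higher (edgeR adjusted p = 0.000207). zpg, the germline innexin gene, was 89.9, 103 and 82.6 CPM, at least 155-fold higher (edgeR adjusted p = 0.00011). The differentiation factor gene bam had means of 24.4 CPM in Upd and 0.214 CPM in the labelled RNAi libraries (edgeR adjusted p = 0.00561). WT means lay between those of the 2 groups for vas (8.57 CPM), aub (7.45 CPM) and nos (3.995 CPM). The lower member was tud, the Tudor gene, at 632, 481 and 448 CPM in Upd and 1289, 1605 and 1597 CPM in the labelled RNAi libraries (edgeR adjusted p = 0.00268). Summed over the list, the level was 2466 to 2849 CPM per Upd library and 1384 to 1732 CPM per labelled RNAi library, most of the latter from tud.

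Genes of later germline stages went the other way. Of 31 spermatid markers tested, 21 were lower in Upd and none was higher, with a median log2 change of -4.53, or -4.29 with the 4 members that had no counts in Upd at their bound. Their summed level was 133 to 269.6 CPM per Upd library, 4257 to 5752 CPM per labelled RNAi library and 6996 to 12975 CPM per WT library. Mst87F, a sperm tail protein gene, stood at 27.6, 11.2 and 22.1 CPM in Upd and 1214, 1063 and 677 CPM in the labelled RNAi libraries (log2 -5.60 ± 0.55, edgeR adjusted p = 7.06e-08). Mst77F, which encodes a chromatin protein of the condensing sperm nucleus, stood at 20.8, 8.77 and 8.73 CPM and 203, 213 and 273 CPM, and at 769, 1243 and 746 CPM in WT (log2 -4.17 ± 0.43, edgeR adjusted p = 1.49e-07). The protamine gene ProtA had no counts in Upd and 37.2, 0 and 28.9 CPM in the labelled RNAi libraries (edgeR adjusted p = 0.00054). ProtA and ProtB are close copies, as are the genes of the Mst84D cluster, so counts may be split between them.

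Spermatocyte markers were mixed. Of 21 tested, 4 were higher (19.0% against 9.7% of all genes tested), 2 were lower (9.52% against 20.5%) and 15 did not pass. The median log2 change was 1.72, and 15 of the 21 changes were positive. Summed levels went the other way, with 303 to 353 CPM in Upd and 831 to 1074 CPM in the labelled RNAi libraries. Much of the latter came from loopin-1, given below. CycB3, a mitotic and meiotic cyclin gene, was 103, 76.8 and 72.0 CPM in Upd and 0, 0.642 and 1.55 CPM in the labelled RNAi libraries (edgeR adjusted p = 0.000337). The RNA-binding protein gene Rbp4 and the meiotic arrest gene aly had no counts in the labelled RNAi libraries and means of 6.76 and 4.94 CPM in Upd (edgeR adjusted p = 0.0128 and 0.0247). The aly call was lost without Upd 2 or without any 1 labelled RNAi library. The sperm mitochondrial peptidase gene loopin-1 fell, from 457, 541 and 442 CPM in the labelled RNAi libraries to 22.4, 4.21 and 3.43 CPM in Upd (edgeR adjusted p = 3.33e-06).

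**Figure D3:**
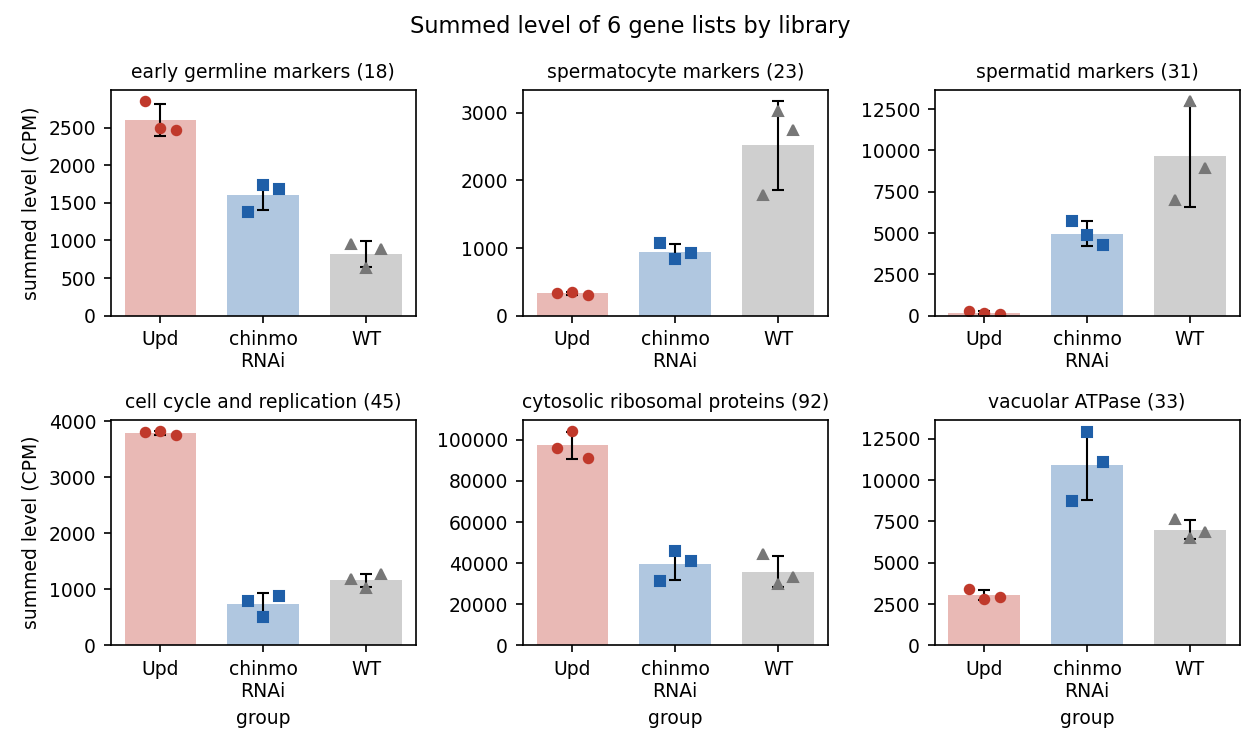
Summed level in CPM of 6 gene lists in each Upd, labelled chinmo RNAi and WT library; bars are group means, error bars the SD over 3 libraries, points the libraries, and numbers in titles the members in the count table. Early germline, cell cycle and ribosomal protein lists are highest in Upd, spermatocyte and spermatid lists are lowest in Upd, and the vacuolar ATPase list is highest in the labelled RNAi libraries.

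Cell cycle genes were higher in Upd through replication, mitotic entry and chromosome segregation. Of 45 tested, 33 were higher and none was lower, with a median log2 change of 3.87. With any 1 library left out, 26 to 30 were higher. Their summed level was 3759 to 3827 CPM in Upd and 510.1 to 889 CPM in the labelled RNAi libraries. The replication clamp gene PCNA stood at 266, 279.5 and 269 CPM in Upd and 7.06, 1.28 and 12.9 CPM in the labelled RNAi libraries (log2 5.23 ± 0.88, edgeR adjusted p = 9.67e-05; 6.01 without labelled RNAi replicate 3). Klp61F, the spindle kinesin gene, had 58.7, 81.4 and 79.2 CPM in Upd and 0, 0 and 1.03 CPM in the labelled RNAi libraries (edgeR adjusted p = 0.000129). The mitotic kinase gene Cdk1 had means of 133 and 7.39 CPM (edgeR adjusted p = 0.00228), the Cdc25 phosphatase gene stg 78.6 and 4.37 CPM (edgeR adjusted p = 0.0147), and the cyclin gene CycA 144 and 8.54 CPM (edgeR adjusted p = 0.00192). Some regulators of the G1 phase were among those not called in the fit of all 15 libraries: CycE had means of 66.5 and 16.8 CPM (edgeR adjusted p = 0.076), CycD 31.9 and 48.6 CPM (edgeR adjusted p = 0.562), and Rbf, the retinoblastoma gene, 38.0 and 80.6 CPM (edgeR adjusted p = 0.225). CycE was called in 7 of 16 alternatives, namely both other scalings, DESeq2, limma-voom, the 6 libraries alone, and without the Chinmo group or labelled RNAi replicate 1. Rbf was called with the 6 libraries alone. The kinase gene Cdk2, on the same list, was called higher in the main fit and in all 16 alternatives, with log2 changes of 6.29 to 9.23 over these. Early germline markers moved with this group, at the summed levels given above, and their part in the result was not tested.

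Most cytosolic ribosomal protein genes were higher in Upd. Of 91 tested, 68 were higher and 2 were lower, with a median log2 change of 1.34. Together they held 91199 to 104416 CPM per Upd library, 31072 to 45745 CPM per labelled RNAi library and 29800 to 44213 CPM per WT library. RpL13 stood at 2087, 2208 and 2003 CPM in Upd and 439, 450.4 and 554 CPM in the labelled RNAi libraries (log2 2.13 ± 0.37, edgeR adjusted p = 0.000146). Wider differences were seen in gene copies known from the germline: RpL22-like was 361, 435 and 367 CPM in Upd and 4.49, 0 and 16.5 CPM in the labelled RNAi libraries (edgeR adjusted p = 0.000114), RpS5b had means of 303 and 9.70 CPM (edgeR adjusted p = 0.000255) and RpS19b 135 and 2.06 CPM (edgeR adjusted p = 0.000563). The 2 lower members were the copies RpL10Aa and RpS28-like, at means of 1.52 and 0.883 CPM in Upd and 22.9 and 13.2 CPM in the labelled RNAi libraries. The second call was lost without Upd 2, Upd 3 or labelled RNAi replicate 1. Without labelled RNAi replicate 1 the higher calls were 43. Reads shared by near-identical copies may be split between them, and the part of the early germline markers, which moved the same way, was not tested.

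Few growth regulators were called. The Myc gene dm was 337, 298 and 351 CPM in Upd and 57.7, 21.2 and 62.4 CPM in the labelled RNAi libraries (log2 2.80 ± 0.56, edgeR adjusted p = 0.000566). The forkhead factor gene foxo was 245, 182 and 203 CPM and 16.0, 5.78 and 18.6 CPM (log2 3.95 ± 0.73, edgeR adjusted p = 0.000279). Of 18 insulin, TOR and Myc genes these 2 were the ones higher, and 2 were lower. That is 11.1% each way, against 9.7% higher and 20.5% lower over all genes tested. Thor, the 4E-BP gene that restrains translation, stood at 110.2, 96.1 and 90.4 CPM in Upd and 399.6, 425 and 444 CPM in the labelled RNAi libraries (log2 -2.10 ± 0.40, edgeR adjusted p = 0.000402), against 156, 158 and 171 CPM in WT. The insulin-like peptide gene Ilp6 was 41.1, 19.6 and 36.8 CPM and 189, 202 and 177 CPM (edgeR adjusted p = 0.00141). The receptor gene InR did not pass the test, with means of 706 and 397 CPM (edgeR adjusted p = 0.248).

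Temporal identity genes moved in both directions. In neural stem cells the RNA-binding proteins Imp and Syp oppose each other, Imp and chinmo marking early and Syp and Eip93F late states. In the testis libraries Imp stood at 751, 695 and 621 CPM in Upd and 122, 65.5 and 167 CPM in the labelled RNAi libraries (log2 2.54 ± 0.40, edgeR adjusted p = 4.81e-05). Syp stood at 102, 133 and 104 CPM and 801, 637 and 782 CPM (log2 -2.71 ± 0.37, edgeR adjusted p = 6.61e-06). The groups did not overlap for either gene, and the labelled RNAi libraries lay near WT for both, with WT means of 141 CPM of Imp and 760.5 CPM of Syp. Eip93F, the E93 factor gene, fell to 6.39, 3.16 and 1.25 CPM in Upd from 247, 147 and 228 CPM in the labelled RNAi libraries (log2 -5.85 ± 0.67, edgeR adjusted p = 6.73e-07; -6.53 without Upd 1). The RNA-binding protein gene lin-28 had no counts in the labelled RNAi libraries and 60.7, 36.1 and 40.8 CPM in Upd, at least 77.3-fold higher (edgeR adjusted p = 0.000745). Of 9 genes tested in the list, 4 were higher (44.4%) and 2 were lower (22.2%), against 9.7% and 20.5% of all genes tested. The share of lower calls was thus near that of all genes tested. The median log2 change was -0.21 (0.11 under size factor scaling).

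Of 15 sex determination genes tested, dsx was higher (6.67%, against 9.7% of all genes tested) and none was lower. In 8 of 16 alternatives Yp3 was called lower. dsx stood at 423, 299 and 358 CPM in Upd and 75.0, 68.1 and 103 CPM in the labelled RNAi libraries (log2 2.13 ± 0.50, edgeR adjusted p = 0.0024). Gene counts do not separate its male and female isoforms. Upstream, the splicing factor gene tra was 29.96, 34.0 and 25.9 CPM in Upd and 9.62, 14.8 and 20.6 CPM in the labelled RNAi libraries, without overlap but without passing the test (log2 0.99 ± 0.90, edgeR adjusted p = 0.423). The yolk protein gene Yp1, a marker of ovarian follicle cells and fat body, had 0 counts in Upd and 0, 2 and 0 counts in the labelled RNAi libraries and was not tested. Yp3 had means of 1.14 CPM in Upd and 14.3 CPM in the labelled RNAi libraries (edgeR adjusted p = 0.0514). Of 18 follicle cell genes 8 were tested, and 2 were higher and 1, Fas3, was lower. That is 25% and 12.5%, against 9.7% and 20.5% of all genes tested. The higher ones were the zinc finger factor gene br (91.6 and 16.9 CPM, edgeR adjusted p = 0.0469) and the eggshell gene dec-1 (16.5 and 0.516 CPM, edgeR adjusted p = 0.016). Both lost the call without Upd 1, Upd 3 or labelled RNAi replicate 1. The br call was also lost without Upd 2 or labelled RNAi replicate 3 and with a replicate block.

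Among intercellular signalling pathways, the Notch list held the most higher calls: 7 of 16 genes tested were higher and none was lower, with a median log2 change of 1.60. The receptor gene N was 153, 131 and 126 CPM in Upd and 1.28, 8.35 and 24.2 CPM in the labelled RNAi libraries (log2 3.58 ± 0.95, edgeR adjusted p = 0.00642; 4.81 without labelled RNAi replicate 3). The nuclear partner gene Su(H) had means of 31.9 and 3.05 CPM (edgeR adjusted p = 0.0191). The Su(H) call was lost without Upd 2 or labelled RNAi replicate 1. The gene neur, which encodes a ubiquitin ligase for ligand endocytosis, was 91.1, 65.9 and 64.5 CPM and 8.34, 0 and 5.16 CPM (edgeR adjusted p = 0.00799). Among target genes of the E(spl) type, E(spl)m3-HLH had means of 36.8 and 2.45 CPM (edgeR adjusted p = 0.0273), a call lost with any 1 library left out except labelled RNAi replicate 3. Her, a Hairy/E(spl)-related gene now named Hesr, had no counts in the labelled RNAi libraries and 53.9, 61.4 and 87.6 CPM in Upd, at least 114-fold higher (edgeR adjusted p = 0.000413). The ligand gene Dl did not pass, at 16.4, 11.6 and 18.7 CPM in Upd and 16.7, 0 and 0 CPM in the labelled RNAi libraries (edgeR adjusted p = 0.467), but did without labelled RNAi replicate 1. Without Upd 2, 4 Notch genes were called.

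Other pathways showed few calls, to be read beside the 9.7% higher and 20.5% lower over all genes tested. In the Hedgehog list 17.6% were higher and 11.8% lower. Of 17 Hedgehog genes, 3 were higher and 2 lower: the transcription factor gene ci was 245, 214 and 194 CPM in Upd and 46.8, 43.0 and 39.2 CPM in the labelled RNAi libraries (log2 2.34 ± 0.51, edgeR adjusted p = 0.00143), its cytoplasmic partners cos and fu were also higher (means of 73.9 and 4.503 CPM for cos and 22.6 and 0.985 CPM for fu, edgeR adjusted p = 0.0178 and 0.0121; cos lost the call without labelled RNAi replicate 1 or 3), and hh and the ligand-binding gene shf were lower. The receptor and target gene ptc overlapped between groups, at 41.9, 37.2 and 38.0 CPM in Upd and 25.7, 8.35 and 39.2 CPM in the labelled RNAi libraries (edgeR adjusted p = 0.587). Of 18 BMP and activin genes, 2 were higher (11.1%) and 5 lower (27.8%), near the 9.7% and 20.5% of all genes tested. The lower ones were dpp, the activin-like ligand gene daw, the extracellular modulators sog and cv-2, and Dad, the inhibitory Smad gene. Dad, itself a BMP target, was 33.2, 21.7 and 17.8 CPM in Upd and 122, 181 and 139.8 CPM in the labelled RNAi libraries (log2 -2.61 ± 0.53, edgeR adjusted p = 0.000754). Without Upd 1, 3 of this list were lower. daw lost the call without Upd 1, Upd 3 or labelled RNAi replicate 1, and cv-2 without Upd 1 or Upd 2 and under size factor scaling. The receptor genes tkv (88.97 and 35.3 CPM) and put (94.0 and 62.4 CPM) did not pass (edgeR adjusted p = 0.206 and 0.597).

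In the EGFR and MAPK list 3 of 24 were higher, 12.5% against 9.7% of all genes tested, and none was lower. The higher genes were the protease gene stet and the ETS factor genes pnt and aop. Without Upd 1, or without labelled RNAi replicate 1, the count was 1. pnt was 212, 164 and 150 CPM in Upd and 34.0, 53.3 and 10.3 CPM in the labelled RNAi libraries (log2 2.43 ± 0.83, edgeR adjusted p = 0.0299), a call lost with any 1 library left out except labelled RNAi replicate 2. The receptor gene Egfr was 132, 128 and 117 CPM and 41.0, 59.1 and 43.3 CPM, without overlap but not called (edgeR adjusted p = 0.182). With the 6 libraries alone it was called, and the list held 7 higher and 2 lower genes. In the Wnt list 1 of 22 was higher, Wnt4, and 2 were lower, the ligand gene Wnt2 at 10.4, 3.16 and 2.81 CPM in Upd and 89.2, 174 and 91.3 CPM in the labelled RNAi libraries (edgeR adjusted p = 0.00138) and the receptor gene fz2 at means of 47.0 and 149 CPM (edgeR adjusted p = 0.0248). The fz2 call was lost without Upd 2, Upd 3, or labelled RNAi replicate 2 or 3, and with labelled RNAi replicate 1 or 3 left out 2 Wnt genes were higher. The Wnt shares, 4.55% higher and 9.09% lower, were below those of all genes tested, 9.7% and 20.5%. With the 6 libraries alone 4 were higher and 4 lower.

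A few very abundant transcripts of the labelled RNAi libraries were far lower in Upd. GstS1, a glutathione S-transferase gene, stood at 1273, 686 and 631 CPM in Upd, 40099.6, 55195 and 53587 CPM in the labelled RNAi libraries and 51975, 34906 and 42524 CPM in WT, 57.5-fold lower in Upd than in the labelled RNAi libraries (log2 -5.85 ± 0.40, edgeR adjusted p = 4.13e-10). Obp44a, an odorant-binding protein gene, stood at 230.5, 97.5 and 72.3 CPM and 19891, 30478 and 24599.6 CPM, with 16151, 14240.1 and 14886 CPM in WT (log2 -7.55 ± 0.48, edgeR adjusted p = 1.05e-10; -8.19 without Upd 1). For both genes Upd 1 was the highest of the Upd libraries. The secreted SCP-domain protein genes scpr-A, scpr-B and scpr-C, of which A and B are neighbours on chromosome arm 3R, behaved alike: scpr-C was 45.1, 57.9 and 35.5 CPM in Upd and 14106, 22138 and 16512 CPM in the labelled RNAi libraries (log2 -8.57 ± 0.46, edgeR adjusted p = 9.68e-12). For the 3 scpr genes the labelled RNAi libraries lay above WT as well, for scpr-C with a log2 difference of 1.91 (edgeR adjusted p = 0.00644), and since they are close copies their reads may be split. The cytoplasmic actin gene Act5C fell from 6333, 9446 and 7703 CPM in the labelled RNAi libraries to 1309.7, 1297 and 1469.9 CPM in Upd (log2 -2.53 ± 0.35, edgeR adjusted p = 1.04e-05). Together GstS1, Obp44a, scpr-A, scpr-C and Act5C came to 8.85% to 13.0% of the library total after TMM scaling in the labelled RNAi libraries. They came to 6.08% to 7.83% of that scaled total in WT and 0.216% to 0.288% in Upd. These are not shares of the counts themselves. The TMM factors were 0.827 to 0.940 in the labelled RNAi libraries and 1.20 to 1.32 in Upd, so shares of counts lie closer together.

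**Figure D4:**
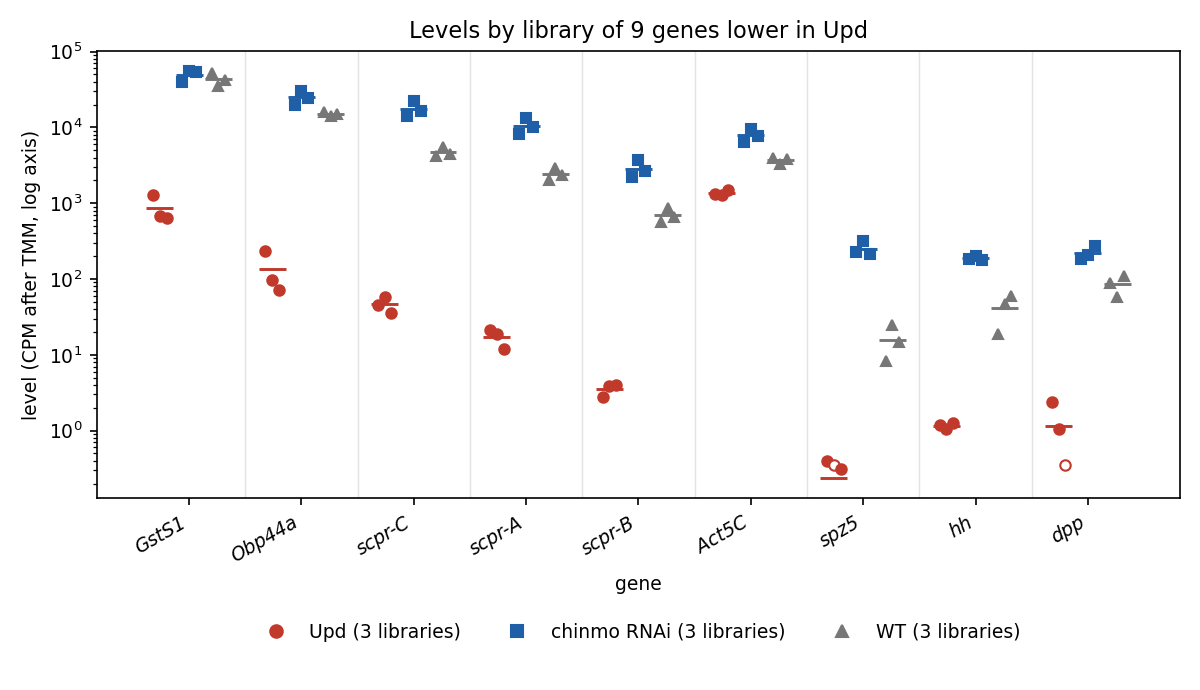
Level in CPM after TMM, on a log axis, of 9 genes lower in Upd, by library; points are libraries, lines group means, and open circles libraries with no counts, drawn at the floor of 3 counts over the group. Upd lies below both other groups for each gene, and for scpr-A, scpr-B, scpr-C, spz5, hh and dpp the labelled RNAi libraries also lie above WT.

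The widest falls had next to no counts in Upd. GluRIIC, a glutamate receptor subunit gene, had no counts in Upd and 110.3, 258 and 217 CPM in the labelled RNAi libraries, at least 557-fold lower in Upd (edgeR adjusted p = 7.66e-07). Obp56a was at least 484-fold lower and the cuticle protein gene Cpr92A at least 335-fold lower (edgeR adjusted p = 4.59e-06 and 2.98e-05). DIP-eta, an immunoglobulin-domain cell surface gene, was at least 343-fold lower (edgeR adjusted p = 3.44e-05), as were the ligand gene boss, Teh1, which encodes a sodium channel subunit, and Cpr97Ea, by at least 161-, 137- and 136-fold. The Toll ligand gene spz5, a neurotrophin relative, stood at 0.399, 0 and 0.312 CPM in Upd, 224, 319 and 212 CPM in the labelled RNAi libraries and 8.21, 24.7 and 14.7 CPM in WT (edgeR adjusted p = 1.19e-05). RacGAP84C, a Rac GTPase activator gene of spermatids, was counted 1 time over the 3 Upd libraries and stood at 199, 319 and 322 CPM in the labelled RNAi libraries (edgeR adjusted p = 3.95e-06). Of these genes, boss and spz5 were also above WT in the labelled RNAi libraries, with log2 differences of 4.31 and 3.98 (edgeR adjusted p = 0.0435 and 0.0217), as was scpr-B.

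The widest rises included early germline genes. Beside nos, zpg, tut, Her and lin-28, they were Pxt, a peroxidase gene with a known role in oogenesis, at least 70.1-fold higher, karr at least 39.9-fold, olf413 at least 36-fold and mms4, a DNA repair endonuclease subunit gene, at least 34.9-fold higher, each with no counts in the labelled RNAi libraries. The citron kinase gene sti, needed for cytokinesis, was 113, 102 and 85.1 CPM in Upd and had 1 count over the labelled RNAi libraries (edgeR adjusted p = 7.77e-06).

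Many epithelial junction genes were lower in Upd. Of 22 septate junction and polarity genes, 10 were lower and none was higher, with a median log2 change of -1.12. nrv2, a sodium pump beta subunit gene, stood at 97.1, 54.0 and 83.6 CPM in Upd and 659, 1187 and 1062 CPM in the labelled RNAi libraries (log2 -3.63 ± 0.39, edgeR adjusted p = 2.32e-07). Lac, the Lachesin gene, stood at 68.7, 47.0 and 67.4 CPM and 563, 995 and 605 CPM (log2 -3.56 ± 0.54, edgeR adjusted p = 2.63e-05). The adhesion gene Nrx-IV and the claudin-like genes sinu and kune were also lower (edgeR adjusted p = 0.00169, 0.00204 and 0.00317), while the polarity genes dlg1 and scrib did not pass (edgeR adjusted p = 0.222 and 0.0645), but did with the 6 libraries alone, dlg1 above and scrib below. The list held 9 lower calls with any 1 library left out. Gap junction genes were mixed: of 6 innexins, zpg and ogre were higher and Inx3 was lower. That is 33.3% and 16.7%, against 9.7% and 20.5% of all genes tested. ogre was 77.1, 73.7 and 99.8 CPM in Upd and 17.3, 3.21 and 8.25 CPM in the labelled RNAi libraries (edgeR adjusted p = 0.0112). The Inx3 call (39.3 and 213 CPM, edgeR adjusted p = 0.0275) was lost under size factor scaling and without any 1 of the Upd libraries or labelled RNAi replicate 1.

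Called laminin and integrin genes went in both directions. The laminin alpha gene LanA was 941, 762 and 780.5 CPM in Upd and 149, 142 and 106 CPM in the labelled RNAi libraries (log2 2.64 ± 0.45, edgeR adjusted p = 0.000124). The gamma chain gene LanB2 had means of 105 and 10.1 CPM (edgeR adjusted p = 0.00907). The integrin alpha gene scb was 150.2, 87.3 and 88.9 CPM and 698, 827 and 557 CPM (log2 -2.67 ± 0.59, edgeR adjusted p = 0.00157). The beta gene mys was lower as well (269.9 and 697 CPM, edgeR adjusted p = 0.0145), whereas the alpha gene mew was higher (97.2 and 9.90 CPM, edgeR adjusted p = 0.0215). mys lost the call under size factor or upper quartile scaling, with DESeq2, and without Upd 2 or labelled RNAi replicate 1, and mew without Upd 1 or labelled RNAi replicate 3. Of 20 matrix and integrin genes 3 were higher and 4 lower, 15% and 20% against 9.7% and 20.5% of all genes tested. The lower count in this list was 1 under size factor scaling or without Upd 2, and 2 without Upd 3 or labelled RNAi replicate 1.

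Organelle and metabolic genes were lower in Upd in several lists. Of 28 vacuolar ATPase subunit genes tested, 19 were lower and 3 higher, with a median log2 change of -1.94 and summed levels of 2833 to 3383 CPM in Upd, 8740.3 to 12889 CPM in the labelled RNAi libraries and 6508 to 7667 CPM in WT. This proton pump acidifies endosomes and lysosomes. Vha55, its regulatory subunit gene, stood at 195, 181 and 181 CPM in Upd and 635, 1161 and 676 CPM in the labelled RNAi libraries (log2 -2.15 ± 0.38, edgeR adjusted p = 0.000156). Vha26 stood at 658, 583 and 582 CPM and 1461, 2363 and 1975 CPM (log2 -1.67 ± 0.31, edgeR adjusted p = 0.000275). The 3 higher subunits, Vha16-3, VhaAC39-2 and Vha16-5, had no counts in the labelled RNAi libraries and means of 2.38 to 5.66 CPM in Upd. A total of 1 higher call was left without Upd 1, and none without Upd 3 or without any 1 labelled RNAi library.

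Of 16 glycolysis genes 7 were lower and none was higher, with a median log2 change of -1.36. Pglym87 and Hex-t2, among the 7, are testis copies, with means of 1.32 and 1.82 CPM in Upd and 124 and 79.7 CPM in the labelled RNAi libraries. Pgi, the glucose phosphate isomerase gene, stood at 43.5, 58.9 and 38.0 CPM and 219, 286 and 212 CPM (log2 -2.35 ± 0.42, edgeR adjusted p = 0.000186). ImpL3, the lactate dehydrogenase gene, stood at 20.0, 7.72 and 58.3 CPM and 63.5, 164 and 191 CPM (edgeR adjusted p = 0.0101). The ImpL3 call was lost without Upd 2. The lower count was 4 under size factor scaling, and 3 or 4 without Upd 1, Upd 2, Upd 3 or labelled RNAi replicate 3. Of 11 heat shock genes 5 were lower (3 under size factor scaling), led by the small heat shock gene Hsp23 at 169, 211 and 208 CPM in Upd and 1682, 2869 and 3093 CPM in the labelled RNAi libraries (log2 -3.70 ± 0.38, edgeR adjusted p = 1.49e-07). The constitutive chaperone gene Hsc70-4 did not pass (edgeR adjusted p = 0.11), but did under size factor scaling and with the 6 libraries alone.

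**Figure D5:**
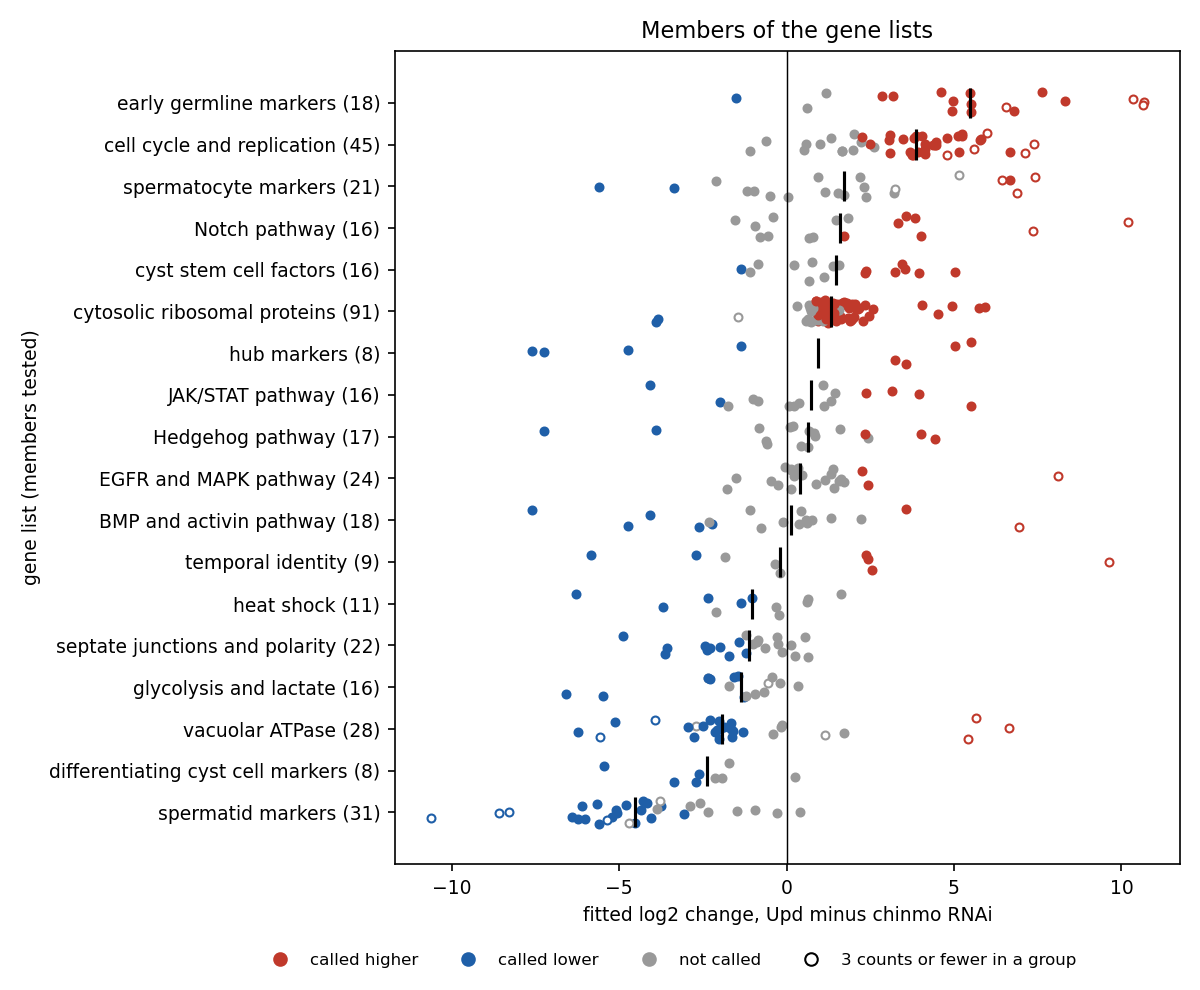
Fitted log2 change, Upd minus chinmo RNAi, of the tested members of 18 gene lists, sorted by their median (black bars); red and blue points were called higher and lower, grey points were not called, and open points had 3 counts or fewer over a group. Early germline and cell cycle members lie mostly right of 0, spermatid, differentiating cyst cell and vacuolar ATPase members mostly left of it, and hub markers on both sides.

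Few oxidative phosphorylation and proteasome genes were called, and most of those were testis copies. Of 80 nuclear oxidative phosphorylation genes 7 were lower (8.75%, against 20.5% of all genes tested) and 1 higher. Their median log2 change was -0.30 (0.04 under size factor scaling). Of the 7, 6 were testis copies such as COX7AL, with means of 6.62 CPM in Upd and 81.7 CPM in the labelled RNAi libraries (edgeR adjusted p = 0.00301), and the higher 1 was also a copy, ATPsynepsilonL, at 65.1, 91.2 and 74.5 CPM and 0, 0.642 and 1.03 CPM (edgeR adjusted p = 0.000555). Without labelled RNAi replicate 3 the lower count was 4. Of 46 proteasome genes 5 were lower (10.9%, against 20.5% of all genes tested), each a testis copy, and the median log2 change was 0.01. The lower count was 2 without Upd 2, without Upd 3 or without labelled RNAi replicate 2. Spermatid markers moved with the testis copies, at the summed levels given above, and their part was not tested. Transcripts of the mitochondrial genome took 6.75% to 7.17% of counts in Upd, 2.90% to 3.48% in the labelled RNAi libraries and 4.92% to 7.11% in WT. The small ribosomal RNA mt:srRNA (log2 1.10 ± 0.26, edgeR adjusted p = 0.00301) and the oxidase subunit mt:CoIII (log2 1.22 ± 0.30, edgeR adjusted p = 0.00404) were the most counted named genes higher in Upd.

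piwi, the nuclear Argonaute gene of the piRNA pathway, expressed in both lineages, stood at 1155, 934 and 1040.2 CPM in Upd and 123, 14.8 and 64.5 CPM in the labelled RNAi libraries (log2 3.95 ± 0.86, edgeR adjusted p = 0.00184; 4.71 without labelled RNAi replicate 1). Of 14 small RNA genes, piwi and the helicase gene armi were higher, 14.3% against 9.7% of all genes tested, and none was lower. With the 6 libraries alone 5 were higher and 1 lower. The call of armi (149 and 45.1 CPM, edgeR adjusted p = 0.0267) was lost with no filter and without any 1 of the Upd libraries or labelled RNAi replicates 2 or 3. AGO2, the siRNA Argonaute gene, did not pass (edgeR adjusted p = 0.729). Of 16 ecdysone response genes 2 were higher and 2 lower, 12.5% each against 9.7% and 20.5% of all genes tested. The 2 lower calls were E23 (17.3 and 72.9 CPM), lost in 9 of 16 alternatives, and Eip55E (40.5 and 100.5 CPM), lost in 11 of 16. Both were lost under size factor scaling. With 1 library left out, Eip55E was lost in each case and E23 in each except labelled RNAi replicate 2. Of 18 JNK and cell death genes none was higher (1 without labelled RNAi replicate 1) and 2 were lower, 11.1% against 20.5% of all genes tested. The apoptosis activator gene rpr stood at 1.20, 1.403 and 1.56 CPM in Upd and 77.6, 9.64 and 28.4 CPM in the labelled RNAi libraries (edgeR adjusted p = 0.00731). The other lower gene was the TNF receptor gene grnd, listed as CG10176 (means of 4.46 and 65.0 CPM, edgeR adjusted p = 0.000736).

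Markers of cell types outside the sorted lineage gave a mixed picture. Of 12 muscle genes tested 2 were lower, 16.7% against 20.5% of all genes tested, and none was higher. The actin gene Act87E, with means of 2.31 CPM in Upd and 119 CPM in the labelled RNAi libraries, was lower (edgeR adjusted p = 1.59e-05). Of 5 neuron markers 2 were lower and 1 higher: nSyb, the synaptobrevin gene, was 0.799, 7.37 and 4.68 CPM in Upd and 187, 363 and 304 CPM in the labelled RNAi libraries (edgeR adjusted p = 2.11e-06). nrv3, a sodium pump subunit gene, had means of 0.104 and 23.8 CPM (edgeR adjusted p = 0.000747). The higher one was para, the voltage-gated sodium channel gene, at 98.7, 139 and 57.4 CPM in Upd and 1.92, 0 and 8.25 CPM in the labelled RNAi libraries (edgeR adjusted p = 0.0156), a call lost without labelled RNAi replicate 1. elav, the pan-neuronal gene, did not pass (edgeR adjusted p = 0.3). Summed neuron marker levels were 128 to 209.7 CPM in Upd and 279.6 to 439 CPM in the labelled RNAi libraries, most of the latter from nSyb. Without nSyb the rest of the list summed higher in Upd. Among hemocyte markers the scavenger receptor gene crq was lower, from 604, 632 and 711 CPM in the labelled RNAi libraries to 64.7, 51.6 and 65.2 CPM in Upd (edgeR adjusted p = 3e-06). The other hemocyte genes tested, 3 of 8 listed, were not called, and over the 6 libraries He was not counted, eater was counted 1 time and NimC1 5 times. No fat body marker was called among 4 tested, and FASN1 had means of 802 and 744 CPM (edgeR adjusted p = 0.853). Of 12 accessory gland genes 1 was tested, Acp36DE, at 1.60, 0 and 0.935 CPM in Upd and 54.5, 14.1 and 15.5 CPM in the labelled RNAi libraries (edgeR adjusted p = 0.00732). The summed hemocyte level was 139.6 to 169.8 CPM in Upd and 744 to 833 CPM in the labelled RNAi libraries, most of the latter from crq. Of 4 antimicrobial and recognition genes tested, PGRP-LB was higher (4.79 and 0.172 CPM, edgeR adjusted p = 0.0346), a call lost with any 1 library left out except labelled RNAi replicate 3. The part of these cell types in the lower calls was not tested.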

How the data were processed

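GFP-positive cells were sorted and polyA RNA was sequenced as paired reads of 50 cycles, per the labels' protocols. The submitters' processing notes name bcl2fastq, STAR, Picard, HTSeq and DESeq2 with the builds dm6 and BDGP6; their versions and the strand setting are details not given in the sources used here. Deposited raw counts per gene (17408 genes after 5 summary lines were dropped) were used. The authors' deposited normalized signal equals these counts divided by 1 factor per library, with a largest gap of 0.00125, and was not tested.

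Genes passing filterByExpr were fitted with edgeR 4.0.16 (R 4.3.3) after TMM scaling, with robust quasi-likelihood, all 15 libraries and 1 mean per group; p-values were adjusted by Benjamini-Hochberg, and the SE is the log2 change over the root of F. On simulated counts 31.25% of 8-fold and 1.04% of 2-fold changes were recovered (96 genes per size among 10056). Of 31 calls, 0 were false. The data gave 975 higher and 2058 lower calls, far more than the simulation, so these rates need not hold for the data. The share of small changes missed in the data was not tested. Positions are from the Ensembl annotation of BDGP6. Named genes are those of the manipulations, the 10 widest rises and falls with a mean of at least 10 CPM and no overlap, up to 4 called members per list by adjusted p and the 5 most abundant each way; other list members were named for their role after their values were seen. Members and lists were chosen with earlier results of these data known. Alternatives were other scalings, filters, tools, sample sets, a replicate block and leaving out each library.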

Additional observations from a re-analysis of the deposited data

How the results depend on the processing

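Against 975 higher and 2058 lower genes, DESeq2 1.42.0 called 1981 higher, limma-voom 1766, the fit of the 6 libraries alone 1547 and the fit without the Chinmo overexpression group 1959; the lower count stayed within 1.5 times of the main count in each alternative. Leaving out 1 library gave 602 to 855 higher and 1458 to 2011 lower genes. With a replicate block, 852 genes were higher and 1848 lower. Same-numbered libraries deviated together with r of 0.00909, 0.0386 and -0.00582, and not every sample correlated best with its own number. These values gave no sign of pairing by number, but they cannot exclude a shared preparation. Scaling moved the median log2 change of all genes from -0.05 to 0.25 with size factors. Of 168 called genes among the 197 named, 137 were called in every one of the 15 or 16 alternatives that gave them a value and 31 lost the call in at least 1; 18 uncalled genes were called in at least 1. With 1 library left out, the uncalled gene Rfabg ranged from -0.82 to 0.16 on the log2 scale, a change of direction, and Prosalpha4T1 from -8.96 to 0, no change being left; the upper value of each was without labelled RNAi replicate 2. The cause was not tested. The spread between replicates over all 5 groups (BCV 65.34%) and the counts per library limit what can be seen of low genes. Counts were 1666727 to 2443475 in the 6 libraries compared and 1143049 to 2943120 over the whole fit. Replicate 3 of the Chinmo group had the fewest counts and the fewest genes detected, 4983, and the highest rRNA share, 32.3%. Its own part in the calls was not tested.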

Other observations

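Further gene families were grouped by symbol after their values had been seen and are described without a test of the family; over all genes tested 9.7% were higher and 20.5% lower. All 6 odorant-binding protein genes tested were called lower; beside Obp44a, Obp99a, a carrier of small ligands by homology, stood at 117, 84.9 and 63.0 CPM in Upd and 3886, 6383 and 6512 CPM in the labelled RNAi libraries (log2 -5.99 ± 0.45, edgeR adjusted p = 1.62e-09). Of 28 glutathione S-transferase genes 12 were lower and none was higher. GstD1, a detoxification enzyme gene, was 221, 187 and 223 CPM in Upd and 2655, 4404 and 4608 CPM in the labelled RNAi libraries (log2 -4.21 ± 0.37, edgeR adjusted p = 1.52e-08). Sterol transport genes of the Niemann-Pick type C families were lower in 4 of 6 cases: Npc2a stood at 5.19, 4.21 and 4.99 CPM in Upd, 729.9, 1322 and 1077 CPM in the labelled RNAi libraries and 301, 279.7 and 343 CPM in WT (edgeR adjusted p = 7.97e-11), and Npc1a, the lysosomal membrane partner, was 184, 143 and 158 CPM and 891, 1246 and 1399 CPM (edgeR adjusted p = 8.44e-06). Of 24 Rab genes 7 were lower, none was higher and 17 did not pass; among the lower ones were Rab5 of early endosomes (means of 182 and 491 CPM, edgeR adjusted p = 0.00362) and Rab7 of late endosomes (104 and 396 CPM, edgeR adjusted p = 0.00345).

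Some genes of secreted and surface proteins were lower. The growth factor gene Idgf3 was 159, 114.7 and 124 CPM in Upd and 2341, 3686 and 3512 CPM in the labelled RNAi libraries (log2 -4.58 ± 0.39, edgeR adjusted p = 7.88e-09), and 4 of 5 Idgf genes were lower. Of 22 tetraspanin genes 7 were lower, 1 was higher and 14 did not pass; the lower ones were led by Tsp42Ed at 14.8, 5.61 and 9.67 CPM and 577, 729 and 564 CPM (edgeR adjusted p = 1.32e-08). Cuticular protein genes of the RR family were lower in 7 of 12 cases, and together held 2.81 to 5.99 CPM per Upd library and 318.8 to 391.3 CPM per labelled RNAi library. The sperm leucyl aminopeptidase genes, which encode abundant sperm proteins, were lower in 6 of 7 cases, S-Lap1 at means of 15.01 CPM in Upd and 533 CPM in the labelled RNAi libraries (edgeR adjusted p = 2.39e-07).

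Of 19 nucleoporin genes 9 were higher and none was lower, with a median log2 change of 2.20; Nup358 had means of 546 CPM in Upd and 156 CPM in the labelled RNAi libraries (edgeR adjusted p = 0.0282), a call lost with any 1 library left out. Of 70 mitochondrial ribosomal protein genes 4 were higher and none was lower, a smaller share higher than over all genes tested, with a median log2 change of 1.07.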
